A study of Homo sapiens with 45 samples.

Results

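Potassium channel genes were followed across 13 sarcoma cell lines. The genes were all those whose symbol begins with KCN, for pore-forming and auxiliary subunits, and which had at least 1 curated RefSeq mRNA among the measured transcripts. They numbered 96 of the 41582 genes in the tables, with 516 transcripts between them. A further 27 KCN symbols had no curated mRNA, most of them antisense or intronic RNAs, and were left out. Poly(A) RNA was measured in 7 Ewing sarcoma lines (TC71, SKES1, RDES, MHHES1, EW24, EW3 and A673) and 6 osteosarcoma lines (U2OS, SAOS2, MG63, KHOS, HOS-MNNG and G292), untreated as far as the labels say, with 3 libraries per line. HOS-MNNG and KHOS both derive from the HOS line. The 6 other libraries were A673 cells carrying sh908, a hairpin RNA directed against KCNN1, 3 left without doxycycline and 3 given doxycycline, which switches the hairpin on. A control hairpin and parental A673 with doxycycline were not analysed here, so the hairpin and the drug cannot be told apart. Only 1 hairpin in 1 line was used.

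Potassium channels let potassium leave or enter the cell and set its membrane potential. Voltage-gated channels (Kv) open on depolarization, calcium-activated channels open when calcium rises inside the cell, inward rectifiers and two-pore-domain channels set the resting potential, and modifier subunits only carry current together with another Kv subunit. Auxiliary subunits such as the KCNE, KCNAB, KCNMB and KCNIP proteins change how a pore opens or where it sits. KCNN1 encodes SK1, a small-conductance calcium-activated channel that reads calcium through bound calmodulin. Ewing sarcoma cells make a fusion protein of EWSR1 and an ETS factor, usually FLI1, and ETS factors bind DNA at a GGAA core.

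The sequences upstream of KCNN1, of KCNE3 and of KCNN4 are shown because these genes were among those most different between the tumour types, KCNN1 and KCNE3 high in Ewing sarcoma and KCNN4 high in osteosarcoma. Other genes that differed and had a window, KCNMA1 among them, are not shown. The printed windows therefore do not represent all such genes. Each is the 250 bases before a RefSeq gene start in GRCh38.p14, written 5′ to 3′ on the strand of the gene, with GGAA and its reverse complement TTCC in capitals. KCNN1 has 2 starts in the table, at chr19:17952007-17952256 (upstream start) and chr19:17966857-17967106 (downstream start), both on the plus strand. The KCNE3 window lies at chr11:74467550-74467799 and the KCNN4 window at chr19:43780974-43781223, both on the minus strand.
KCNN1 upstream start: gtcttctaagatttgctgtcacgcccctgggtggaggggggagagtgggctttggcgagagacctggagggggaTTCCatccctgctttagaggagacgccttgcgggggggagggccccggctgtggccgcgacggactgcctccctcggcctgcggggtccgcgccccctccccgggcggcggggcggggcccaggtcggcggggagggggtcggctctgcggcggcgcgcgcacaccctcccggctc
KCNN1 downstream start: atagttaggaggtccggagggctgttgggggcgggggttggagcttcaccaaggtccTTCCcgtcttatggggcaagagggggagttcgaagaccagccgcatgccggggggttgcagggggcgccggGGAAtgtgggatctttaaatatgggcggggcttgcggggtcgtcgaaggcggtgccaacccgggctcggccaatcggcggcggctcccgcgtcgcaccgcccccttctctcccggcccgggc
KCNE3: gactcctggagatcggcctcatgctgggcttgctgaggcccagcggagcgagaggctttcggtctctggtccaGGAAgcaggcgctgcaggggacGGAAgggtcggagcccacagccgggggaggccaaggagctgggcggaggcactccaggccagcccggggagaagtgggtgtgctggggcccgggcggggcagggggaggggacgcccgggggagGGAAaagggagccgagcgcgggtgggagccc
KCNN4: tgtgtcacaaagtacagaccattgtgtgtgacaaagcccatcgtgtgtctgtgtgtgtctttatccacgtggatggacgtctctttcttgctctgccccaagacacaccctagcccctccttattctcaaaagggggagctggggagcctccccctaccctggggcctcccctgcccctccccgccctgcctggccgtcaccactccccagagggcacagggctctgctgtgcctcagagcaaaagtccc
The KCNN1 windows held 1 and 2 cores, the KCNE3 window 3, and the KCNN4 window 0. Over all 35116 RefSeq windows of this length, 92.7% held GGAA on either strand, and so did 102 of the 110 windows of 72 KCN genes (92.7%). The median was 3 cores over all windows and 3 over the KCN windows. In the 6 windows of 4 KCN genes called higher in Ewing sarcoma it was 3 (1 to 4). In the 10 windows of 9 genes called lower it was 2.5 (0 to 10), and 7 of these windows held a core. The other 24 KCN genes had no window in the table, KCNE4 and KCNK9 among them. A tandem GGAAGGAA, which overlaps the single core, was in 3.06% of all windows, in 6 of the 110 KCN windows and in none of these printed ones.

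Libraries held 15974173 to 51413254 estimated counts, and 0.915 to 1.60% of them fell on transcripts with no gene. The 6 Ewing sarcoma markers examined summed to 855 to 2212 TPM (a transcript level scaled for length and sequencing depth) in Ewing sarcoma lines and 143 to 970 TPM in osteosarcoma lines, where 4 of them reached 1 TPM and PRKCB and LIPI did not. The 6 osteoblast markers summed to 70.3 to 938 TPM in Ewing sarcoma lines, where all but SP7 reached 1 TPM in some line, and to 246 to 4865 TPM in osteosarcoma lines. SP7 exceeded 1 TPM in SAOS2 only (22.1 TPM). The highest sums in Ewing sarcoma and in osteosarcoma lines were 49.2 and 38.6 TPM for 3 markers of mature neurons, 30.01 and 2.91 TPM for 3 of muscle, 4.42 and 28.1 TPM for 3 of epithelium, 1.41 and 6.69 TPM for 2 of endothelium, and 2.45 and 0.382 TPM for 4 of blood. Their part in the results was not tested. Replicate 3 of the sh908 libraries stood apart from replicates 1 and 2 in both doxycycline groups. Nothing in the labels says that libraries of a line came from separate cultures, so p-values between sh908 groups measure only the spread between these libraries. In bulk RNA, fewer cells with a transcript and less of it per cell cannot be told apart.

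Of the 96 genes, 60 had a mean of at least 1 TPM in some line, 30 reached 10 TPM, and 36 stayed under 1 TPM in every line. The number at 1 TPM or more ranged from 20 to 33 (median 25) in Ewing sarcoma lines and from 15 to 36 (median 20.5) in osteosarcoma lines, and U2OS had the most. The ranges overlapped. Summed over all KCN genes, the levels also overlapped, at 212 to 429 TPM in Ewing sarcoma lines and 211 to 361 TPM in osteosarcoma lines. The 69 pore-forming genes alone summed to between 53.4 and 144 TPM in Ewing sarcoma lines and between 148 and 338 TPM in osteosarcoma lines, and these ranges did not overlap. With transcript models under 1500 bases left out, a limit chosen after the data were seen, the pore sums did overlap, at 52.9 to 133 TPM and 100.5 to 202 TPM. These sums were described, not tested.

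The tumour types were compared with edgeR's quasi-likelihood test on counts summed per line, with a false discovery rate (FDR, Benjamini-Hochberg over 22000 genes) under 0.05 as the threshold for a call. Of the 96 genes, 67 passed the filter on low counts, and of these 8 were called higher and 9 lower in Ewing sarcoma, which is 25.4%, while 14.4% of all genes tested were called (5.96% higher, 8.4% lower). At an unadjusted p under 0.05 the shares were 40.3% and 29.6%. The median log2 difference was -0.06 over the KCN genes and -0.06 over all genes. By role, the counts of genes called higher and lower were 3 and 1 of 19 tested voltage-gated genes, 1 and 3 of 7 calcium- or sodium-activated genes, 1 and 2 of 11 inward rectifiers, 1 and 2 of 7 two-pore-domain genes, 0 and 0 of 8 modifiers, and 2 and 1 of 14 auxiliary genes. The filter left out 29 genes, 7 of which still reached 1 TPM in a line, among them KCNA1.

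**Figure D1:**
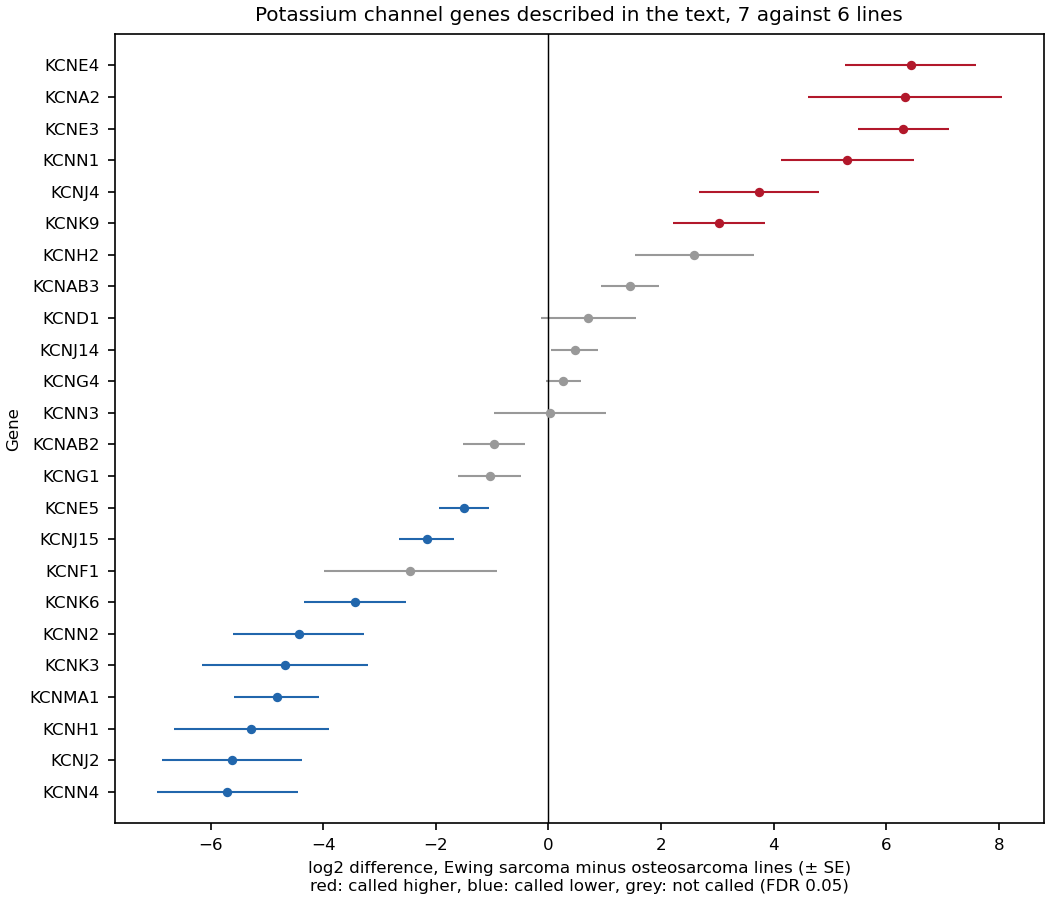
Log2 difference in fitted expression, Ewing sarcoma minus osteosarcoma lines, with standard errors (horizontal axis), for 24 tested potassium channel genes described in the text (vertical axis), with 7 and 6 lines. Red points mark 6 genes called higher, blue points 9 called lower and grey points 9 not called, which lie on both sides of 0.

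The highest channel transcripts of the Ewing sarcoma lines came from auxiliary subunits. KCNE3, a single-pass subunit known to hold KCNQ1 channels open, was at 37.4 to 222 TPM in Ewing sarcoma lines (median 104, highest in A673) and at 0.299 to 3.80 TPM in osteosarcoma lines (median 0.821, highest in KHOS). Every Ewing sarcoma line lay above every osteosarcoma line, a lack of overlap seen for 5.58% of all genes tested (3.19% with Ewing sarcoma higher, 2.39% lower). The difference was 6.30 on the log2 scale (SE 0.81, edgeR FDR 0.00042, 7 against 6 lines). KCNQ1 itself, looked up after KCNE3, was at 0 to 0.0607 TPM in Ewing sarcoma lines and at most 0.282 TPM in osteosarcoma lines. KCNE4, a KCNE subunit known to inhibit some Kv channels, was at 9.48 to 183 TPM (median 67.1, highest in EW3) against 0.0390 to 3.37 TPM (median 0.253, highest in G292). These ranges did not overlap either, and the log2 difference was 6.43 (SE 1.16, edgeR FDR 0.00346). KCNE3 and KCNE4 together made 39.2 to 70.8% of all KCN TPM in Ewing sarcoma and 0.19 to 1.13% in osteosarcoma. Their order varied: KCNE4 was above KCNE3 in EW3 (183 ± 55.1 against 37.4 ± 6.22 TPM, SD, n = 3) and in MHHES1 (78.4 ± 13.1 against 66.6 ± 2.69 TPM), and KCNE3 was above KCNE4 in the 5 other lines.

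KCNE5 was the other auxiliary gene called. KCNE5, a further KCNE subunit, was called lower in Ewing sarcoma (log2 difference -1.50, SE 0.45, edgeR FDR 0.0396), but at 0.0545 to 0.245 TPM against 0.165 to 0.630 TPM it was below 1 TPM in every line, and the ranges overlapped. It stayed called in 5 of the 13 fits that left out a line or a replicate number and tested it (highest FDR 0.0961), and its call was lost with limma on log2(TPM + 1) and log2(TPM + 0.1) (FDR 0.115 and 0.0840). KCNAB3, a beta subunit of Kv channels, was at 4.48 to 26.2 TPM (median 17.6) in Ewing sarcoma lines and at 2.53 to 18.4 TPM (median 3.61) in osteosarcoma lines. Its log2 difference of 1.45 (SE 0.52) was not called (edgeR FDR 0.0784), but was called without A673 (1.61, FDR 0.0458) or G292 (2.20, FDR 0.00414), by DESeq2 (FDR 0.0195), by limma on both TPM scales (FDR 0.0322 and 0.0267) and with line as a random effect (FDR 0.00137). KCNAB2, another beta subunit, was at 0.553 to 6.78 against 2.74 to 13.1 TPM and was not called (log2 difference -0.97, edgeR FDR 0.265).

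**Figure D2:**
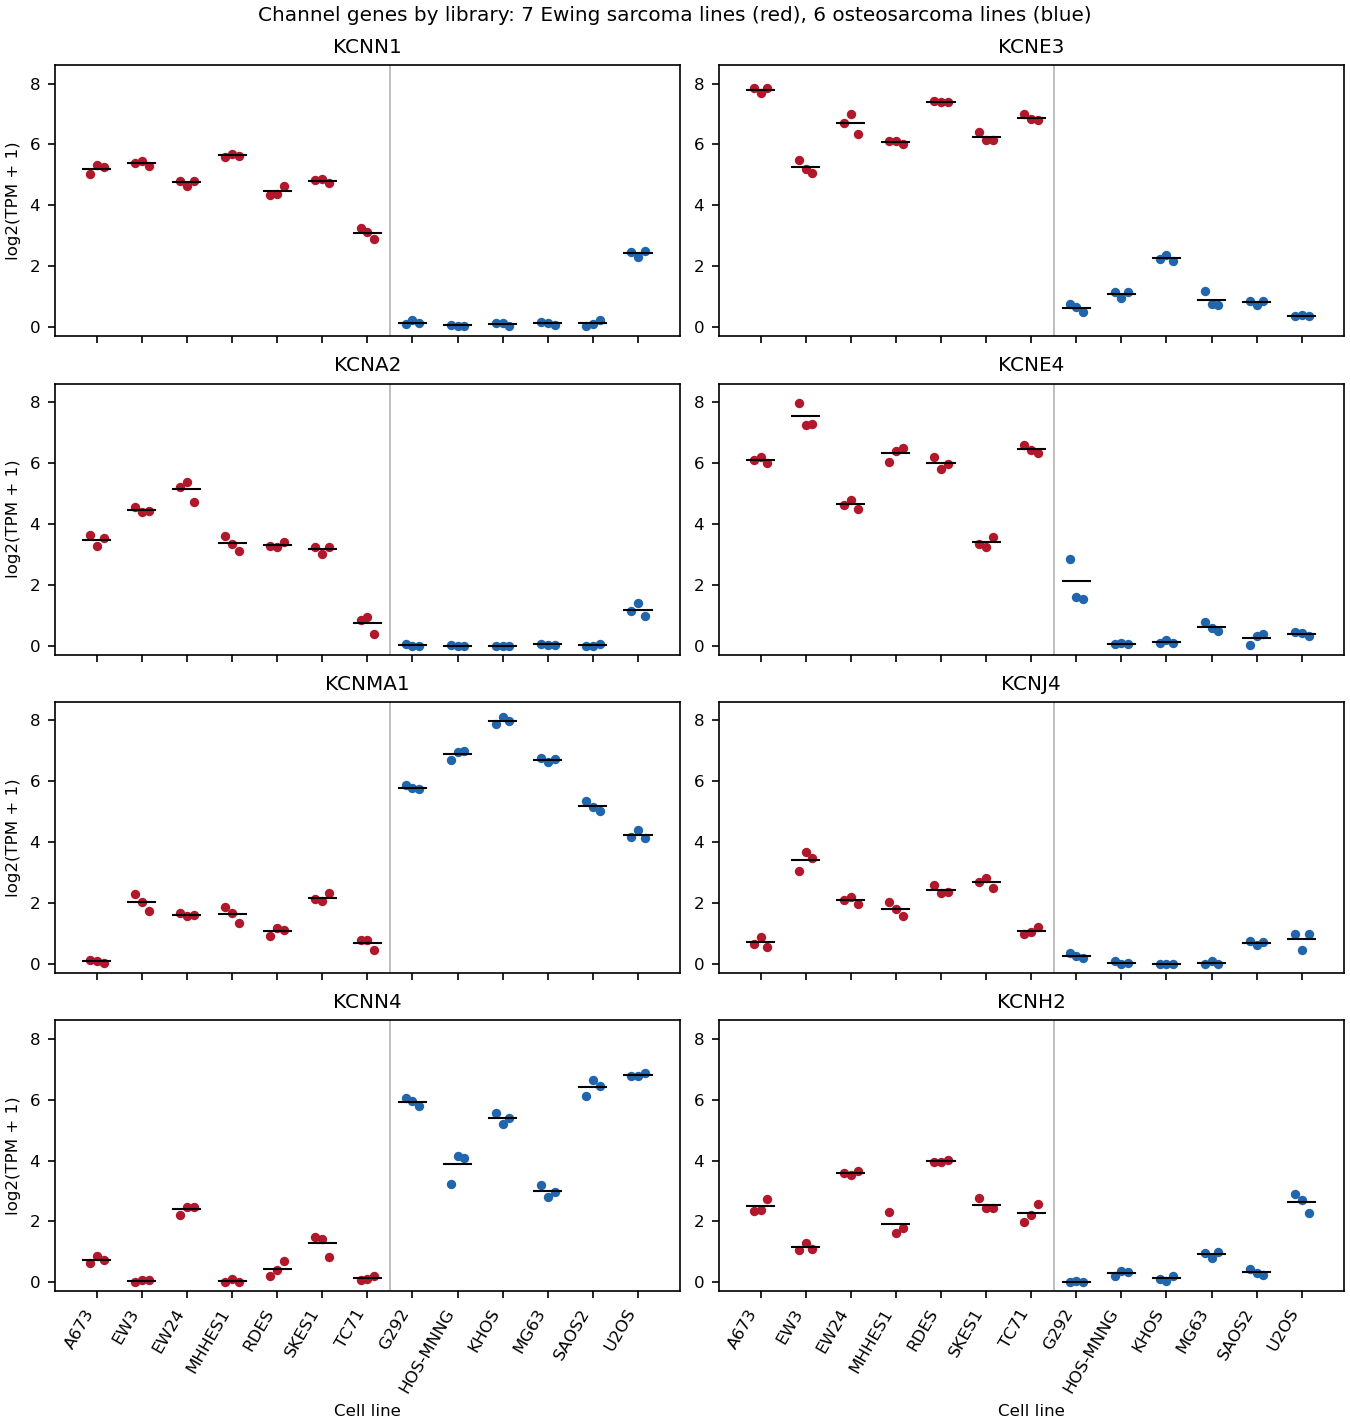
Level of 8 channel genes as log2(TPM + 1) (vertical axis) in each library of the 13 parental lines (horizontal axis). Dots are libraries, black bars are at the mean TPM of a line, red is Ewing sarcoma and blue is osteosarcoma. KCNN1, KCNE3 and KCNE4 dots lie higher in every red line than in the blue lines, KCNMA1 and KCNN4 the other way, and KCNN1 in U2OS (4.36 TPM) lies between the other osteosarcoma lines and TC71 (7.57 TPM).

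The calcium-activated channels split by tumour type: KCNN1 was the high member in Ewing sarcoma, and KCNMA1 and KCNN4 were the high members in osteosarcoma. KCNN1 had its highest level in MHHES1 (48.9 ± 1.92 TPM, SD, n = 3), followed by EW3 (40.7 ± 2.16), A673 (36.01 ± 3.61), SKES1 (26.97 ± 1.42), EW24 (26.1 ± 1.81), RDES (20.99 ± 2.64) and TC71 (7.57 ± 1.06). The intervals of 1 SD overlapped between EW3 and A673 and between SKES1 and EW24, and those of the other neighbours did not. U2OS stood at 4.36 ± 0.417 TPM and the 5 other osteosarcoma lines at 0.0446 to 0.112 TPM, so that no osteosarcoma line reached the lowest Ewing sarcoma line. The log2 difference was 5.31 (SE 1.18, edgeR FDR 0.0104). It ran from 5.05 to 8.32 when single lines or replicate numbers were left out, with the highest value without U2OS, and stayed called each time.

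KCNMA1, the pore of the large-conductance BK channel, which opens on both calcium and voltage, was at 0.0659 to 3.54 TPM in Ewing sarcoma lines (median 2.08, lowest in A673) and at 17.97 to 252 TPM in osteosarcoma lines (median 79.1, highest in KHOS). The ranges did not overlap, and the log2 difference was -4.83 (SE 0.76, edgeR FDR 0.00157). KCNN4, the intermediate-conductance channel known from red cells and lymphocytes, was at 0.0248 to 4.30 TPM (median 0.370, highest in EW24) against 6.95 to 111 TPM (median 50.6, highest in U2OS). These ranges did not overlap, and the log2 difference was -5.70 (SE 1.25, edgeR FDR 0.00947).

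Of the SK channels other than KCNN1, KCNN2 (SK2) was called lower in Ewing sarcoma (log2 difference -4.43, SE 1.16, edgeR FDR 0.0229), at 0 to 0.191 TPM against 0.0355 to 6.54 TPM, with overlapping ranges. Its call was lost without G292, which held the 6.54 TPM (-2.73, FDR 0.0592), and with limma on both TPM scales (FDR 0.189 and 0.140). KCNN3 (SK3) was at 0.0731 to 1.59 against 0.0287 to 2.27 TPM, a log2 difference of 0.02 (SE 0.99, edgeR FDR 0.991) that changed sign when single lines were left out. Within a line, KCNN1 was therefore the SK gene with the highest TPM in all 7 Ewing sarcoma lines, and KCNN4, its relative of higher conductance, was above KCNN1 in all 6 osteosarcoma lines.

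Of the voltage-gated channels called higher in Ewing sarcoma, KCNA2 (Kv1.2, known from axons) was at 0.672 to 34.2 TPM in Ewing sarcoma lines (median 9.25, highest in EW24, lowest in TC71) and at 0 to 1.26 TPM in osteosarcoma lines (median 0.0108, highest in U2OS). The ranges overlapped only because TC71 lay below U2OS. The log2 difference was 6.33 (SE 1.71, edgeR FDR 0.0264), and 11.04 without U2OS.

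KCNH1 (EAG1) was the voltage-gated gene called lower, at 0.00261 to 0.263 TPM in Ewing sarcoma lines and 0.149 to 10.6 TPM in osteosarcoma lines (log2 difference -5.28, SE 1.37, edgeR FDR 0.0219). The 10.6 TPM belonged to SAOS2, and without it the difference was -3.36 with an FDR of 0.0543. The call was also lost with limma on log2(TPM + 1) (FDR 0.152). KCNH1 has an intronic RNA in its span, KCNH1-IT1, at a mean of 1.15 TPM in osteosarcoma lines, and the strand setting of the counting is not given in the sources used here. KCNH2 (hERG, known for the repolarization of the heart) was at 1.22 to 14.7 TPM (median 4.67) against 0.00688 to 5.25 TPM (median 0.249, highest in U2OS). It was not called (log2 difference 2.59, SE 1.06, edgeR FDR 0.119), but was called without U2OS (4.16, FDR 0.0165), by DESeq2 (FDR 0.0208), by limma on both TPM scales (FDR 0.0329 and 0.0181) and with line as a random effect (FDR 0.00241).

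The Kv1 genes beside KCNA2 were low in the line where it was highest, but not in every line that had it. In EW24, where KCNA2 was at 34.2 TPM, its neighbours KCNA3 and KCNA10 were at 0.0131 and 0.0141 TPM. These 2 genes were looked up after the levels of KCNA2 had been seen.

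Among inward rectifiers, KCNJ4 was called higher and KCNJ2 and KCNJ15 lower in Ewing sarcoma. KCNJ4 (Kir2.3) was at 0.637 to 9.70 TPM (median 3.26, highest in EW3) against 0 to 0.777 TPM (median 0.121), with A673 the only Ewing sarcoma line within the osteosarcoma range. Its log2 difference was 3.74 (SE 1.06, edgeR FDR 0.0321). The call was lost without EW3, G292, HOS-MNNG, SKES1 or replicate 2 (FDR 0.0511 to 0.0577). KCNJ2 (Kir2.1, the classical strong rectifier) went the other way, at 0.00381 to 0.627 TPM (median 0.0599) against 0.246 to 17.4 TPM (median 4.32, highest in MG63), with SKES1 overlapping U2OS. The log2 difference was -5.62 (SE 1.25, edgeR FDR 0.0102). KCNJ15 was called lower (log2 difference -2.16, SE 0.49, edgeR FDR 0.0114) but was under 1 TPM in every line, at 0.0221 to 0.0591 against 0.0398 to 0.427 TPM, and its call was lost with limma on both TPM scales (FDR 0.0777 and 0.0501). KCNJ12 has a near-identical copy, KCNJ18, so reads may be split between them and its level is uncertain. It was not called.

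The two-pore-domain genes, whose channels carry background potassium current, gave 3 calls, none of which held in every fit with a line left out. KCNK6 (TWIK2) was at 0.360 to 2.52 TPM in Ewing sarcoma lines (median 0.813) and at 0.412 to 31.6 TPM in osteosarcoma lines (median 4.10, highest in MG63 and next in KHOS at 18.03), with overlapping ranges. The log2 difference was -3.43 (SE 0.91, edgeR FDR 0.0238), and -2.67 with an FDR of 0.0553 without MG63. The call was lost with limma on both TPM scales (FDR 0.123 and 0.125). KCNK6 overlaps YIF1B, a gene at a mean of 35.6 TPM in Ewing sarcoma and 52.0 TPM in osteosarcoma lines, and whether reads of one were given to the other was not tested. KCNK3 (TASK1, an acid-sensitive background channel) was called lower (-4.68, SE 1.48, edgeR FDR 0.0499), with G292 at 27.1 ± 1.62 TPM. Without G292 the difference was -0.53 (FDR 0.698), and the call held in 5 of 16 fits with a line or replicate number left out. It was also lost with limma on both TPM scales (FDR 0.423 and 0.447) and with line as a random effect (FDR 0.377). KCNK9 (TASK3) was called higher (3.03, SE 0.82, edgeR FDR 0.0263) at 0.0312 to 0.619 against 0 to 0.130 TPM, under 1 TPM in every line. Its call was lost without G292, HOS-MNNG or KHOS (FDR 0.0528 to 0.0558).

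Modifier subunits, which need a partner such as a Kv2 pore, gave no call in the 8 genes tested. KCNG1 was the most widely present, at 0.702 to 14.5 TPM in Ewing sarcoma lines (median 10.8) and 4.12 to 32.3 TPM in osteosarcoma lines (median 15.1), with a log2 difference of -1.05 (SE 0.56, edgeR FDR 0.233). KCNF1 was at 43.1 TPM in G292, 32.8 TPM in MG63 and 11.3 TPM in TC71, and at most 2.94 TPM in the other 10 lines. KCNG4 stayed under 1 TPM in every line.

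A further set of genes reached 5 TPM in 1 line at 4 or more times the level of the next. G292 held 3 of those described here. They were KCNA1 (Kv1.1) at 26.8 ± 2.43 TPM with U2OS next at 1.88 ± 1.23, KCNK3 at 27.1 ± 1.62 TPM with U2OS next at 0.836 ± 0.167, and KCNN2 at 6.54 ± 1.998 TPM with U2OS next at 1.18 ± 0.202. KCNH1 in SAOS2 was at 10.6 ± 0.761 TPM with MG63 next at 1.10 ± 0.0962. These 4 were in osteosarcoma lines. They were picked for this pattern, so their levels are a description.

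**Figure D3:**
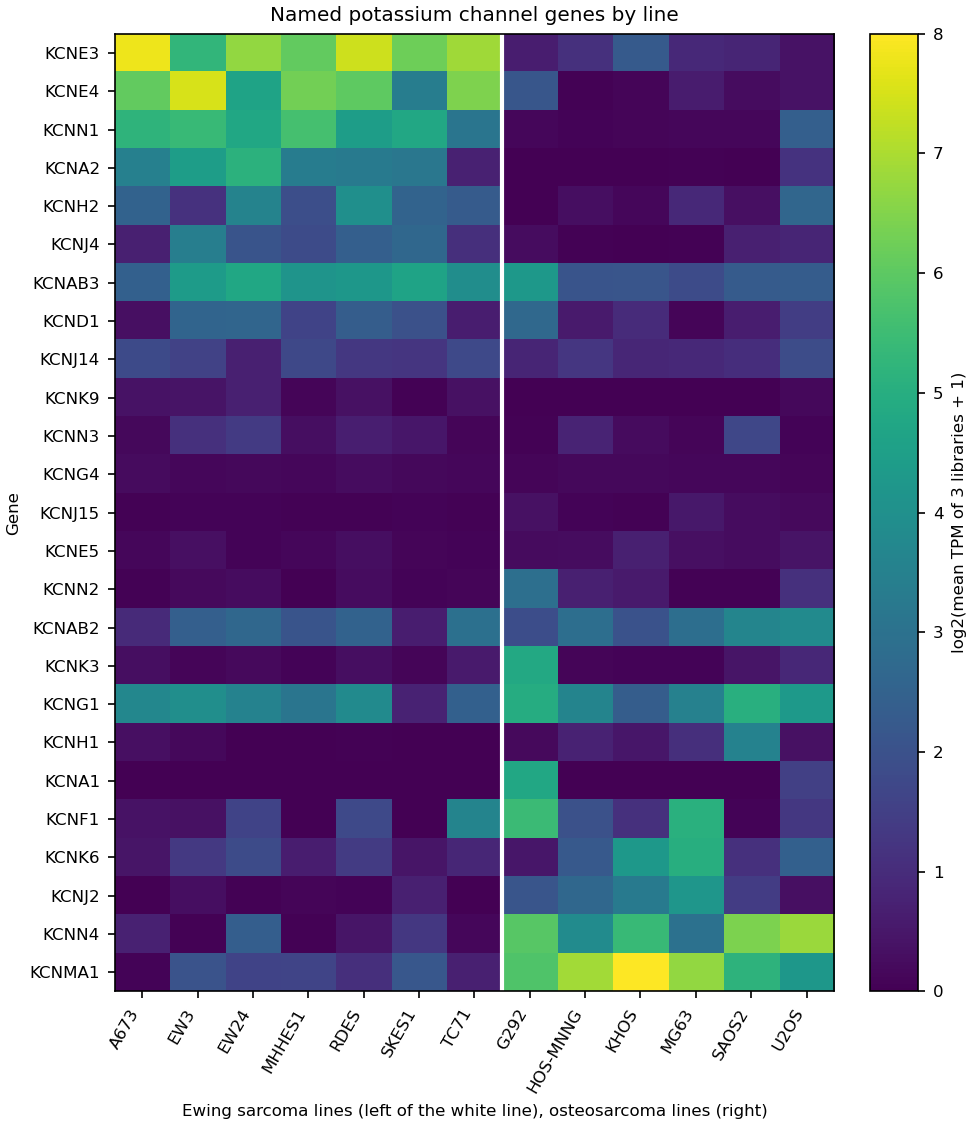
Level of 25 channel genes (rows) as log2(mean TPM of 3 libraries + 1) in 13 lines (columns), Ewing sarcoma left of the white line. Rows run from genes higher in Ewing sarcoma at the top (KCNE3, KCNE4, KCNN1) to genes higher in osteosarcoma at the bottom (KCNN4, KCNMA1), with single bright cells for KCNA1 and KCNK3 in G292 and KCNH1 in SAOS2.

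By mean TPM, KCNN1 ranked first among all 96 KCN genes in 0 of 7 Ewing sarcoma lines: its rank was 2 in EW3 and SKES1, 3 in A673 and MHHES1, 4 in EW24 and RDES, and 6 in TC71. In every Ewing sarcoma line at least KCNE3 or KCNE4 was above it. Among the 69 pore-forming genes KCNN1 ranked first in 4 lines, A673, EW3, MHHES1 and SKES1, and did so in each of their 3 libraries. The next pore genes in these lines were KCNA2 at 10.2 ± 1.41, 21.03 ± 1.33 and 9.25 ± 1.75 TPM, and in SKES1 KCNQ5 (Kv7.5) at 8.25 ± 0.914 TPM. In EW24, KCNA2 (34.2 ± 7.86 TPM) was above KCNN1 (26.1 ± 1.81 TPM) by the mean and in 2 of 3 libraries. TC71 was led by KCNH3 (10.3 ± 0.521 TPM), a Kv channel known from forebrain, in all 3 libraries. KCNQ5 and KCNH3 are named because they hold these ranks, which was seen in the data.

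In osteosarcoma lines KCNN1 ranked between 15 (U2OS) and 61 (HOS-MNNG) among all KCN genes. The leading pore gene was KCNMA1 in HOS-MNNG (118 ± 12.1 TPM), KHOS (252 ± 20.02) and MG63 (104 ± 5.05), and KCNN4 in G292 (60.1 ± 5.62), SAOS2 (84.5 ± 14.9) and U2OS (111 ± 5.32). Thus a calcium-activated pore led in all 6 osteosarcoma lines and in 4 of 7 Ewing sarcoma lines. KCNN1 made 14.2 to 48.1% of the pore TPM in Ewing sarcoma lines, least in TC71 and most in MHHES1, and 0.0203 to 1.67% in osteosarcoma lines.

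KCNQ5 and KCNAB3 were the 2 genes at 1 TPM or more in all 13 lines, and were singled out after their values were seen. KCNQ5 was at 1.95 to 9.19 TPM in Ewing sarcoma lines (median 8.25, lowest in RDES) and 2.18 to 12.5 TPM in osteosarcoma lines (median 6.14, highest in G292), with a log2 difference of -0.08 (SE 0.43, edgeR FDR 0.928).

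Part of these TPM values came from short transcript models. In KHOS, 72.5% of KCNMA1 TPM was assigned to a single curated mRNA of 915 bases, of 58 transcripts listed for the gene. Leaving out transcripts under 1500 bases took KCNMA1 from 252 to 44.4 TPM in KHOS and from 118 to 51.5 TPM in HOS-MNNG, so that KHOS, the higher of the pair with all transcripts, became the lower. In U2OS KCNMA1 went from 17.97 to 3.88 TPM, beside 3.498 TPM in SKES1, the highest Ewing sarcoma line on these models. The ranges still did not overlap. KCNN4 went from 111 to 69.1 TPM in U2OS and from 60.1 to 47.1 TPM in G292. KCNN1, KCNA2, KCNE3 and KCNE4 had 0% from models this short in every line where they were above 0. On the longer models KCNN1 ranked first among pore genes in 5 Ewing sarcoma lines, RDES added (20.99 TPM, with KCNH2 next at 14.7), and second in EW24 and TC71. Its share of pore TPM on these models was 14.3 to 49.1% in Ewing sarcoma lines and 0.0444 to 2.16% in osteosarcoma lines. KCNMA1 and KCNN4 kept the lead in the same osteosarcoma lines. This setting was chosen after the transcripts behind the levels had been seen.

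**Figure D4:**
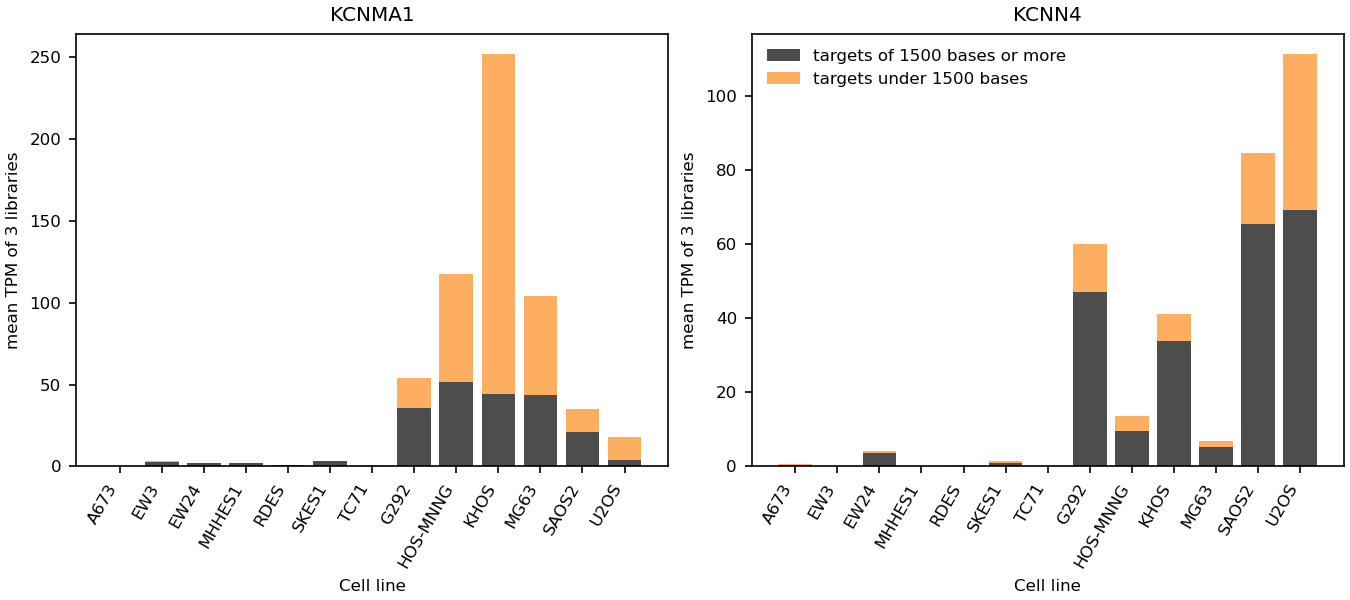
Mean TPM of 3 libraries (vertical axis) of KCNMA1 and KCNN4 in 13 lines (horizontal axis), split into transcript models of 1500 bases or more (dark) and shorter ones (orange). Short models make most of the KCNMA1 bar in KHOS (82.4%) and a smaller part of the KCNN4 bar in U2OS (37.9%).

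Predicted models also carried part of some levels. In the line where each was highest, the curated mRNAs held 18.7% of KCNG1, 31.1% of KCNAB3 and 50.4% of KCNE3, and 95.4% of KCNN1. Summed over curated mRNAs alone, the mean level over Ewing sarcoma lines was 6.67 TPM for KCNAB3 (17.6 with all models), 1.79 TPM for KCNG1 (9.04) and 0.330 TPM for KCNMA1 (1.81).

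Of 29 partner and potassium transport genes listed beside the channels, 21 were tested, 3 were called higher and 3 lower in Ewing sarcoma, beside 14.4% of all genes. ATP1B2, a beta subunit of the sodium-potassium pump (log2 difference 4.02, SE 0.79, edgeR FDR 0.00516), and DPP6, a Kv4 partner (5.59, SE 1.72, FDR 0.0453), were among those called higher. CALM2, which encodes the calmodulin bound by SK channels, was called lower (-0.77, SE 0.20, FDR 0.0185), at 513 to 912 against 832 to 1802 TPM with overlapping ranges, while CALM3, which encodes the same protein, was not called. ABCC9, the partner of some inward rectifiers, was also called lower (-3.49).

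In the sh908 cells, KCNN1 was lower in every library with doxycycline than in any without, and it was called with the replicate number in the model but not without it in a fit of these libraries alone. KCNN1 was at 37.8, 35.3 and 17.99 TPM in uninduced replicates 1 to 3 and at 10.2, 13.7 and 7.75 TPM in induced ones. The groups did not overlap, and replicate 3 was the lowest in both. Without the replicate number in the model, 0 of 34 tested KCN genes were called by edgeR, beside 0% of all 14252 genes. KCNN1 (log2 difference -1.53, SE 0.52) and KCND1 (-1.02, SE 0.39) were the 2 genes at an unadjusted p under 0.05 among the 34 (5.88%, beside 0.66% of all genes). DESeq2 called 0 KCN genes and 2 of all genes. With the replicate number as a block, 1 of 34 was called, KCNN1 (-1.46, SE 0.13, edgeR FDR 0.00132, lower in 3 of 3 pairs), beside 0.512% of all genes (0.26% lower). In a fit of all 45 libraries without the block, KCNN1 was the 1 of 79 called (-1.51, FDR 0.0210), beside 0.0509% of all genes.

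Among pore genes, KCNN1 held ranks 1, 1 and 3 in the uninduced libraries and 1, 2 and 4 in the induced ones. KCNH2 was above it in replicate 3 of both groups and in induced replicate 2, at 17.6, 20.03 and 46.3 TPM uninduced and 6.33, 14.5 and 39.4 TPM induced. KCNH2 was lower with doxycycline in each pair but was not called in either model (blocked log2 difference -0.63, edgeR FDR 0.349). KCNE3 was at 147, 142 and 305 TPM uninduced and 134, 132 and 285 TPM induced, and KCNE4 at 33.1, 26.97 and 58.6 against 32.3, 22.7 and 54.2 TPM. Both groups overlapped for each, replicate 3 was the highest throughout, and neither was called (blocked log2 differences -0.08 and -0.09). KCND1 (Kv4.1) was at 0.982, 0.890 and 1.58 TPM uninduced and 0.500, 0.628 and 0.454 TPM induced, without overlap, and was not called (blocked log2 difference -1.08, edgeR FDR 0.160).

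**Figure D5:**
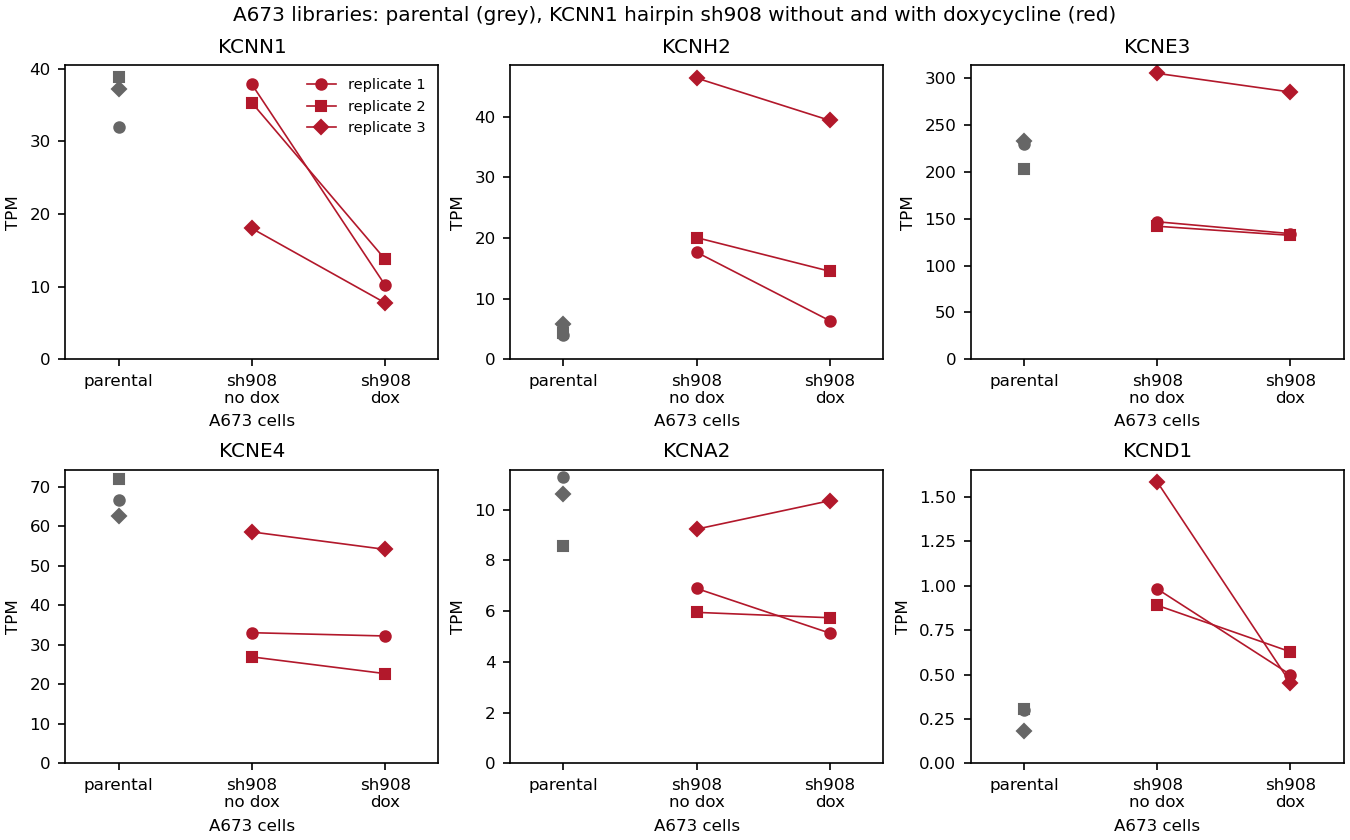
TPM (vertical axis) of 6 channel genes in parental A673 libraries (grey) and in sh908 libraries without and with doxycycline (red), with lines joining libraries of the same replicate number. KCNN1 falls in all 3 pairs, to 10.2, 13.7 and 7.75 TPM, KCNE3 and KCNE4 differ more between replicate 3 and the others than between the groups, and KCNH2 is higher in every uninduced sh908 library than in the parental ones.

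The uninduced hairpin cells were also set against parental A673. This comparison shares the uninduced libraries with the one above. KCNN1 was at 31.97, 38.9 and 37.2 TPM in parental libraries against the uninduced 37.8, 35.3 and 17.99 TPM, which overlapped, and was not called (log2 difference 0.31, SE 0.41, edgeR FDR 0.626). Without uninduced replicate 3 it was called higher (0.69). Of 39 tested KCN genes 6 were called (15.4%), beside 15.1% of all 15778 genes (8.71% higher, 6.42% lower). KCNH2 was at 4.02, 4.24 and 5.74 TPM in parental libraries and 17.6, 20.03 and 46.3 TPM in uninduced ones, with no overlap (2.87, SE 0.28, edgeR FDR 0.00613). KCND1 (2.54), KCNAB2 (2.09) and KCNN3 (2.16) were also called higher, and KCNJ14, an inward rectifier that overlaps the more abundant GRWD1 (-1.98), and KCNG4 (-3.66) were called lower.

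The count changed with the libraries used. Without any 1 of the parental libraries edgeR called 0 KCN genes, with 10 of 39 at an unadjusted p under 0.05 each time (25.6%). Of all genes, 4, 2 and 8 were called in these fits and 21.4 to 22.6% had an unadjusted p under 0.05. The genes that lost their call kept their direction. Among them, KCNH2 was at 2.79 to 3.01 (edgeR FDR 0.0637 to 0.0694) and KCND1 at 2.32 to 2.68 (edgeR FDR 0.0797 to 0.0912). Without uninduced replicate 1, 2 or 3 the count was 8, 2 and 23. These are 19.05, 4.88 and 53.5% of the KCN genes tested, beside 8.25, 1.60 and 62.3% of all genes. On the TPM scale the median difference of all genes was -0.32, against 0.01 in the count model, so the typical tested gene lay lower in the uninduced cells on that scale. On that scale the differences of KCNN1 and KCNE3 took the opposite sign (-0.30 and -0.26, against 0.31 and 0.19) and 2 KCN genes were called higher and 4 lower, against 4 and 2 in the count model. Of all 15778 genes, 383 were called higher and 2887 lower on that scale.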

How the data were processed

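Poly(A) RNA of 45 libraries was made with a NucleoSpin kit and a stranded TruSeq mRNA kit, per the labels' protocols. Each deposited table covers 1 library and 177816 RefSeq transcripts, with estimated counts and TPM per the file headers. The submitters' processing notes list fastp 0.19.5, kallisto 0.46.2 and the builds hg38 and GRCh38.p14. The strand setting is not given in the sources used here.

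Transcripts were joined to genes by RefSeq accession, version ignored, which matched 169966 (95.6%), and the deposited estimated counts and TPM were summed per gene over all its transcripts. Gene counts were rounded, filtered with filterByExpr, scaled with TMM and tested with edgeR 4.0.16 (quasi-likelihood, robust), with Benjamini-Hochberg adjustment over all genes tested and calls at FDR 0.05. For the tumour types the 3 libraries of a line were summed, so that lines were the samples. Alternatives used limma 3.58.1 on log2(TPM + 1) and log2(TPM + 0.1) and DESeq2 1.42.0, in R 4.3.3. Scripts were tested on simulated data. Tables and figures used Python 3.11.15, pandas 2.3.3, numpy 2.4.6 and matplotlib 3.10.9.

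Same-numbered sh908 libraries deviated together (r = 0.683, 0.582 and 0.881, over 0.1 in each pair), and their numbers were taken as pairs. Replicates 1 and 2 also correlated across unlike numbers (r = 0.517 and 0.608). The correlations therefore do not show which of replicates 1 and 2 belong together. 

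The genes, lists and rules were chosen with earlier results of these data known. Named with values were KCNN1 to KCNN4, KCNMA1, genes called between tumour types, the 3 highest genes of each line, genes at 5 TPM or more in 1 line and at least 4 times the next, and genes called in the sh908 comparisons. Some of these genes, and some partner genes, are not reported here.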

Additional observations from a re-analysis of the deposited data

Results flagged for a closer look

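Levels of single lines were compared with the rest of their tumour type on log2(TPM + 1), by the gap to the nearest line over the whole range (Dixon's 95% value of 0.568 for 7 and 0.625 for 6 lines). Of 50 groups of lines, 13 values stood out. Chance gives about 1 in 20 groups for genes not chosen by their levels. These genes were, and 5 of the values belong to genes named because 1 line stood far above the next, so the number is a description. U2OS gave 4 of them, each the highest of the osteosarcoma lines: KCNN1 at 4.36 TPM (others at most 0.112), KCNA2 at 1.26 TPM (others at most 0.0252), KCNH2 at 5.25 TPM (others at most 0.889) and KCNK9 at 0.130 TPM (others at most 0.0201). All but KCNH2 are genes called higher in Ewing sarcoma.

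G292 gave 5: KCNA1 at 26.8 TPM, KCNK3 at 27.1 TPM, KCNN2 at 6.54 TPM, KCNE4 at 3.37 TPM (others at most 0.535) and KCNAB3 at 18.4 TPM (others at most 4.05). KCNH1 in SAOS2 (10.6 TPM) was the other among osteosarcoma lines. Among Ewing sarcoma lines, KCNAB3 was low in A673 (4.48 TPM, others at least 14.3), KCNJ2 was high in SKES1 (0.627 TPM, others at most 0.219), and KCNA1 stood out in MHHES1 at 0.00702 TPM, a level near 0.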

How the results depend on the processing

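Between the tumour types, 17 KCN genes were called in the main model. The count was 17 of 67 with RLE size factors (25.4%, beside 14.5% of all genes), 20 of 96 without the count filter (20.8%, 10.5%), 23 of 67 with DESeq2 (34.3%, 24.6%), 12 and 14 of 67 with limma (17.9%, 11.9%, and 20.9%, 13.6%), 18 of 50 with line as a random effect (36%, 21.7%) and 15 of 67 with HOS-MNNG and KHOS as 1 line (22.4%, 12.4%). It was 13 (without G292, 19.4%, 13.2%) to 19 (without U2OS, 28.4%, 13.9%) with single lines or replicate numbers left out. It was 39 of 50 with the replicate block, which treats libraries rather than lines as samples (78.0%, 80.2%). KCNN1, KCNE3, KCNE4, KCNA2, KCNMA1, KCNN4, KCNJ2 and KCNJ15 (the last not with limma) stayed called in every leave-out that tested them, and KCNE5, KCNK3, KCNK9, KCNJ4, KCNK6, KCNN2 and KCNH1 did not. KCNN3 ran from -0.49 to 1.21 over the leave-outs, reversing its 0.02.

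With doxycycline, 0 KCN genes were called in the main model. The replicate block gave 1, and 1 to 2 without one replicate pair (at most 5.88%, beside 1.21% of all genes), and a fit of all 45 libraries gave 1, KCNN1 each time (-1.46 with the block). Leaving out 1 library, KCNE3 ran from -0.31 to 0.14 and KCNE4 from -0.24 to 0.11. KCNE4 was 0.0015 with the block and without replicate 2.

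Between uninduced and parental cells, 6 KCN genes were called. Same-numbered libraries of these groups were not taken as pairs (r = 0.0455, 0.0866 and 0.250, not over 0.1 in each). Not every library correlated best with its own number, here or between the sh908 groups. DESeq2 gave 11 (28.2%, beside 26.4% of all genes), the replicate block 1 (KCNH2; 2.56%, 2.02%), all 45 libraries 19 (24.1%, 32.04%), and leaving out a library 0 to 23 (53.5%, 62.3%). With the block, leaving out a replicate gave 1 to 15 (36.6%, 52.8%). On log2(TPM + 1) and log2(TPM + 0.1), where the median of all tested genes was -0.32 and -0.48, KCNN1 was -0.30 and -0.31 and KCNE3 -0.26 and -0.26, negative in sign but above that median. KCNN1 also took a negative sign in the block without replicate 1 (-0.23) or 2 (-0.0047). KCNN1 ranked first in 0 Ewing sarcoma lines among all KCN genes and in 4 among pore genes, or 5 with short models left out. The lowest osteosarcoma pore sum lay 4.66 TPM above the highest Ewing sarcoma one, a difference that became -32.1 TPM with short models left out. The block without a replicate and the length limit of 1500 bases were chosen after seeing the data. The 29 genes outside the count filter have no test; KCNA1 among them reached 26.8 TPM in G292. Depth limits the precision of levels under 1 TPM.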
